A study of Homo sapiens with 14 samples.

Results

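The kinesins are motor proteins that walk along microtubules and convert the hydrolysis of ATP into movement or into changes of microtubule length. One set of them works in cell division, where they separate the spindle poles, align chromosomes, shorten microtubules at kinetochores and build the central spindle on which cytokinesis depends. Another set carries vesicles, organelles and ciliary cargo, and is best known from neurons and from cells with cilia. Many mitotic members are transcribed periodically, with their RNA highest in G2 and M phase. In cultured cancer lines such as PANC-1, an epithelial line from a human pancreatic ductal carcinoma, inhibitors of the spindle motor KIF11 arrest cells in mitosis. The members described here are all genes annotated as protein coding whose symbol consists of KIF, a number and at most a letter and a further digit. The rule took 39 of 28120 genes in the table of reads and used no measured value. By textbook role they were divided into 13 mitotic, 13 transport and 13 other kinesins, the last holding members of cilia and centrioles, regulators of microtubule length and members whose role is less settled. The rule leaves out motors with other names, such as CENPE and KIFC1, which are described at the end.

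PANC-1 cells were exposed to proanthocyanidins (PA, plant polyphenols built from flavan-3-ol units, at 20 µg/ml) and harvested at 3, 12 and 24 h, or to the solvent DMSO and harvested at 0, 3, 12 and 24 h. Each of the 7 groups has 2 RNA-seq libraries, and no label says whether they came from separate cultures. P-values thus measure the spread between libraries of a group, which may be technical. That spread was estimated in 1 fit of all 7 groups, so libraries of other times enter each p-value. The labels name no engineered allele, and all groups share the same medium with 10% fetal bovine serum; PA was given at a single dose. Library totals ranged from 26403984 to 35213154 reads. Changes below are log2 ratios of PA over DMSO with their standard error, from edgeR's quasi-likelihood test on raw counts, with p-values adjusted by Benjamini-Hochberg over the 15181 genes tested and a threshold of 0.05. CPM are counts scaled to the library's size after TMM normalisation, and where 2 values stand together replicate 1 is given before replicate 2. The 2 PA libraries at 12 h differed most (chi-square per degree of freedom 103.5, Spearman's rho 0.978 across genes), against 10.3 to 42.9 in the other 6 groups. Of the 6 epithelial markers examined, 5 had at least 1 RPKM (reads per kilobase of gene, scaled to library size) in every library, while CDH1 reached at most 0.21 RPKM. Their summed level was 3205 to 8262 RPKM in PA libraries and 2391 to 2857 RPKM in DMSO libraries, and its part in the changes below was not tested. Mesenchymal markers summed to 745.5 to 1144 RPKM in PA and 682.2 to 1062 RPKM in DMSO libraries. Fibroblast markers summed to 2.34 to 4.21 RPKM in PA and 1.22 to 3.88 RPKM in DMSO libraries, leukocyte markers to 0.92 to 2.26 RPKM in PA and 0.43 to 1.05 RPKM in DMSO libraries, and endothelial markers to at most 0.04 RPKM in both. In bulk RNA of this kind, fewer cells of one kind (such as cells in mitosis) and less RNA per cell cannot be told apart.

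Promoters of several mitotic kinesins carry the cell cycle genes homology region (CHR), an element bound by the DREAM and MMB complexes, often next to a CCAAT box. Promoter sequence from RefSeq (GRCh38.p14, 250 bases before to 50 after each annotated start) was found for 33 of the 39 members. The CHR was searched as TTTGAA or TTTAAA and the CCAAT box as CCAAT, each on both strands, and the ends of the 2 kinds of word can share a base. A CHR word stood in the promoter of 10 of 11 tested mitotic members, 2 of 11 transport members (KIF5B and KIF16B) and 0 of 6 other members that could be matched. The word occurs in 24.0% of all 35116 RefSeq promoters and in 17.1% of the 14722 promoters of tested genes. CCAAT was found in 9 of 11 mitotic, 4 of 11 transport and 1 of 6 other members, against 34.6% of all promoters. KIF22 was the mitotic member without the CHR word. A match says only that these letters occur in the window. The stretches below, with both words in capitals, include KIF22 without the CHR word and the transport motor KIF5B. In the tests described below, KIF20B, KIF15 and KIF18A passed from 3 h on. KIF11, KIF23, KIF4A and KIF20A passed from 12 h on, though PA libraries of KIF11 and KIF23 were below DMSO at 3 h too. The stretches run from 88 bases before to 12 bases after the start. For KIF20B they cover 30 bases from position 13 after the start, where the CHR word occurs in tandem.
KIF20B: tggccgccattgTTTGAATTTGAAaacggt
KIF15: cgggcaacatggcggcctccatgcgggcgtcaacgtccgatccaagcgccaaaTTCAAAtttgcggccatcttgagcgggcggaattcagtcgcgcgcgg
KIF18A: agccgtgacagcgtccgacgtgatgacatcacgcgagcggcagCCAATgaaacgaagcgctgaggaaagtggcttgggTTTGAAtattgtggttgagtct
KIF11: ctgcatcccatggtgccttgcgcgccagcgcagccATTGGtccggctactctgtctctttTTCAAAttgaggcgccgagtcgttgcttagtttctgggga
KIF23: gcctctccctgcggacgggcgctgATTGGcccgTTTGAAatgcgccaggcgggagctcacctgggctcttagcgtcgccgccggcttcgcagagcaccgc
KIF4A: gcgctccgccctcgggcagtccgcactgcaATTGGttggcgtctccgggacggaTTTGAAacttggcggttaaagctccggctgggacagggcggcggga
KIF20A: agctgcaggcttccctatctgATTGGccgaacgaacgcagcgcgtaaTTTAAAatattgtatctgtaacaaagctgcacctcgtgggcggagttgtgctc
KIF22: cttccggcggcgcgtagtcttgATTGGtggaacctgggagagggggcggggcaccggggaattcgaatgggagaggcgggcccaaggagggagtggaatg
KIF5B: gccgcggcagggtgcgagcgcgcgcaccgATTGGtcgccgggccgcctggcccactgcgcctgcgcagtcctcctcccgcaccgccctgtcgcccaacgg
Their positions are KIF20B chr10:89701602-89701631 (plus strand), KIF15 chr3:44761706-44761805 (plus strand), KIF18A chr11:28108145-28108244 (minus strand), KIF11 chr10:92593042-92593141 (plus strand), KIF23 chr15:69414261-69414360 (plus strand), KIF4A chrX:70290016-70290115 (plus strand), KIF20A chr5:138179024-138179123 (plus strand), KIF22 chr16:29790663-29790762 (plus strand) and KIF5B chr10:32056414-32056513 (minus strand). On the gene's own strand the CHR word reads TTCAAA, its reverse complement, in KIF15 and KIF11. The CHR word of KIF5B lies 140 bases before its start, outside the stretch shown, which holds a CCAAT box only.

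Levels can be compared between genes per length. In DMSO libraries at 0 h the microtubule depolymerase KIF2C was the most abundant member, at 122 ± 7.16 RPKM (SD, n = 2). KIF23, a subunit of the centralspindlin complex, had 99.7 ± 9.40 RPKM and KIF5B, the heavy chain of conventional kinesin that most cell types express, 93.1 ± 10.2 RPKM; KIF23 and KIF5B did not differ beyond their spread. KIF4A (58.5 ± 1.92 RPKM), KIF20A (46.3 ± 3.04 RPKM), KIF22 (45.0 ± 2.04 RPKM) and KIF11 (40.7 ± 7.08 RPKM) followed, so that 6 of the 7 highest members were mitotic. After 24 h of PA the order was another one. KIF1C, a motor of vesicle transport, was then highest with 39.8 ± 2.36 RPKM, and KIF2C (39.5 ± 2.98 RPKM) did not differ from it beyond their spread. KIF1A followed with 33.1 ± 4.66 RPKM. KIF23 was ranked 10 at 8.95 ± 2.85 RPKM and KIF11 13 at 3.88 ± 0.83 RPKM. At 0 h KIF1A, known for the transport of synaptic vesicle precursors in neurons, had been ranked 11 with 17.8 ± 0.54 RPKM. The remaining tested members ranged at 0 h from 0.01 RPKM (KIF21B and KIF26B) to 36.1 RPKM (KIF1C). KIF2B, KIF4B, KIF6, KIF12, KIF19 and KIF25 had at most 11 reads in any library and did not pass the filter on low counts, which left 33 members.

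The first question was which kinesins responded by 3 h. Of the 33 tested members, 5 fell and 0 rose (edgeR; 11 were lower and 1 higher at an unadjusted p under 0.05, and DESeq2 called 6 lower and 0 higher). Over all genes tested 1.58% fell and 0.138% rose, and with DESeq2 2.71% and 0.995%. The 5 were the mitotic motors KIF20B, KIF18A, KIF15 and KIF14 and, among the other kinesins, KIF21A, which restrains microtubule growth at the cell cortex. DESeq2 called 4 of these 5, not KIF14, and called KIF18B and KIF27 as well. KIF14 was also not called by edgeR with DESeq2-type size factors or over genes with at least 5 CPM in 2 libraries. The median change of the 11 tested mitotic members was -0.64, that of the 13 transport members -0.11 and that of all genes -0.0055 on the log2 scale. In the fit of all 14 libraries no transport kinesin passed the test at 3 h. That was 0 of 13 by edgeR and by DESeq2, with 3 at an unadjusted p under 0.05. The count at 3 h rested on single libraries. It was 0 without PA replicate 1 or DMSO replicate 2 of that time, and 12 without either PA library of 12 h, although that time is no part of this comparison; 6.85% of all genes fell without replicate 1 and 6.81% without replicate 2. With the 4 libraries of 3 h alone 12 members were lower and 1 higher, where 6.58% of all genes were lower and 1.71% higher. The members called in that fit included the transport motors KIF3A, KIF5B and KIF3C. None of the 5 calls held in all 14 fits that left out a library, and KIF20B held in the most (lost in 2, the lowest and highest adjusted p being 8.31e-05 and 0.143).

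**Figure D1:**
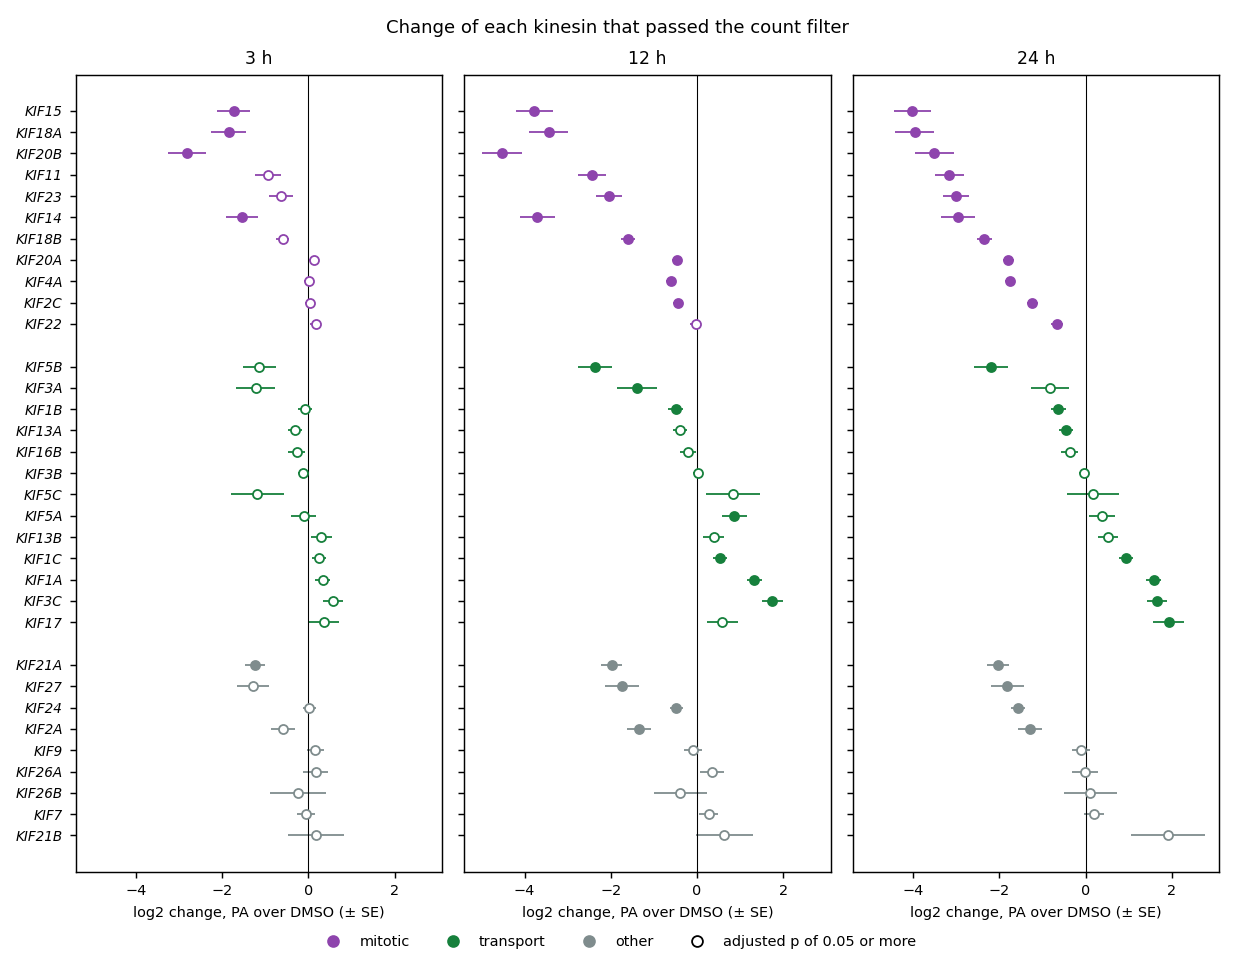
Log2 change of PA over DMSO with its standard error (horizontal axis) for each of the 33 tested kinesins at 3, 12 and 24 h, grouped by class and ordered within a class by the change at 24 h. Filled points passed an adjusted p of 0.05; at 24 h all 11 mitotic members lie left of 0, while the transport members range from -2.20 (KIF5B) to 1.92 (KIF17).

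At 12 h 17 members had fallen and 4 had risen, and at 24 h 18 had fallen and 4 had risen. Over all genes 24.1% fell and 24.4% rose at 12 h, and 27.5% fell and 27.2% rose at 24 h. Among mitotic members 10 of 11 fell at 12 h and 11 of 11 at 24 h, with median log2 changes of -2.04 and -2.95; the medians of all genes were 0.0079 and -0.0082. Of the transport members 3 of 13 were lower (23.1%) and 4 of 13 higher (30.8%) at each of the 2 times, shares near those of all genes. Their medians were 0.39 and 0.17, which turned to -0.11 and -0.21 over the transport members with at least 5 CPM in 2 libraries. Among the 9 other members tested, 4 fell at both times. With the 4 libraries of 12 h alone, 12 members fell and 2 rose, where 12.1% of all genes fell and 13.8% rose. KIF20A and KIF2C were then among the lost calls (adjusted p = 0.0828 and 0.0837 by edgeR), which left 8 of 11 mitotic members lower at 12 h. Of the 22 calls at 24 h, 21 held in each of the 14 fits that left out a library (the exception was KIF13A), and of the 21 calls at 12 h 15 did.

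The 4 mitotic motors called lower at 3 h by edgeR act at different steps of division. KIF20B (chr10:89701610-89774939, plus strand), a motor of the midbody needed for abscission, had 12.4 and 25.6 CPM at 3 h, 5.94 and 10.9 CPM at 12 h and 25.5 and 9.83 CPM at 24 h in PA libraries. KIF20B in DMSO libraries had 152 and 148 CPM at 0 h, 112 and 156 CPM at 3 h, 189 and 198 CPM at 12 h and 148 and 254 CPM at 24 h. Each PA library lay below every DMSO library at all times, and the lowest value was that of PA replicate 1 at 12 h. The log2 change was -2.81 ± 0.43 at 3 h (adjusted p = 0.00431), -4.52 ± 0.47 at 12 h (adjusted p = 1.93e-05) and -3.51 ± 0.45 at 24 h (adjusted p = 4.56e-05). Gene coordinates are those of the GRCh38 annotation. KIF18A (chr11:28020620-28108308, minus strand), which dampens the oscillation of chromosomes at the metaphase plate, had 7.05 and 13.5 CPM at 3 h, 1.91 and 5.25 CPM at 12 h and 4.16 and 1.64 CPM at 24 h in PA libraries. KIF18A in DMSO libraries had 42.7 and 33.1 CPM at 0 h, 32.0 and 42.6 CPM at 3 h, 41.9 and 35.9 CPM at 12 h and 40.9 and 49.6 CPM at 24 h. Its groups did not overlap at any time, and the PA libraries of 12 and 24 h lay below those of 3 h. The change was -1.85 ± 0.40 at 3 h (adjusted p = 0.0336), -3.44 ± 0.45 at 12 h (adjusted p = 8.98e-05) and -3.96 ± 0.46 at 24 h (adjusted p = 2.22e-05). KIF15 (chr3:44761717-44873376, plus strand), which supports a bipolar spindle beside KIF11, had 18.5 and 29.5 CPM at 3 h, 2.84 and 8.57 CPM at 12 h and 7.54 and 3.42 CPM at 24 h in PA libraries. KIF15 in DMSO libraries had 83.4 and 73.8 CPM at 0 h, 76.2 and 83.1 CPM at 3 h, 78.8 and 77.1 CPM at 12 h and 80.4 and 97.5 CPM at 24 h. The groups were again separate at each time, and the PA values of 12 and 24 h overlapped each other. The change was -1.73 ± 0.38 at 3 h (adjusted p = 0.0344), -3.77 ± 0.42 at 12 h (adjusted p = 3.22e-05) and -4.02 ± 0.43 at 24 h (adjusted p = 1.19e-05). KIF14 (chr1:200551497-200620734, minus strand), which acts with citron kinase in cytokinesis, had 20.5 and 30.1 CPM at 3 h, 3.78 and 7.61 CPM at 12 h and 11.7 and 4.29 CPM at 24 h in PA libraries. KIF14 in DMSO libraries had 87.9 and 68.6 CPM at 0 h, 68.8 and 78.4 CPM at 3 h, 82.2 and 66.7 CPM at 12 h and 56.4 and 67.6 CPM at 24 h. Its PA libraries were lower than all DMSO libraries, with the lowest single value in replicate 1 of 12 h. The change was -1.54 ± 0.36 at 3 h (adjusted p = 0.0484), -3.71 ± 0.40 at 12 h (adjusted p = 2.58e-05) and -2.95 ± 0.39 at 24 h (adjusted p = 5.74e-05). At 3 h the calls of KIF14 and KIF15 were lost when any of the 4 libraries of that time was left out (adjusted p 0.0962 to 0.628 for KIF14 and 0.0639 to 0.561 for KIF15), and that of KIF18A in 3 of these 4 fits.

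In the fit of all 14 libraries KIF11, KIF23 and KIF18B passed the test from 12 h on. With the 4 libraries of 3 h alone these members were called at 3 h too, where 6.58% of all genes were lower. KIF11 (chr10:92593286-92655395, plus strand), which slides antiparallel microtubules apart and separates the spindle poles, had 94.6 and 133 CPM at 3 h, 23.0 and 56.9 CPM at 12 h and 28.3 and 20.4 CPM at 24 h in PA libraries. KIF11 in DMSO libraries had 234 and 188 CPM at 0 h, 205 and 232 CPM at 3 h, 228 and 205 CPM at 12 h and 211 and 225 CPM at 24 h. Its PA libraries were below every DMSO library at 3 h too, but the change at that time did not pass the test. The change was -0.94 ± 0.30 at 3 h (adjusted p = 0.153), -2.44 ± 0.32 at 12 h (adjusted p = 9.71e-05) and -3.16 ± 0.33 at 24 h (adjusted p = 1.10e-05). KIF23 (chr15:69414246-69448427, plus strand), which bundles central spindle microtubules, had 242 and 306 CPM at 3 h, 53.5 and 119 CPM at 12 h and 55.7 and 34.3 CPM at 24 h in PA libraries. KIF23 in DMSO libraries had 438 and 393 CPM at 0 h, 399.7 and 453 CPM at 3 h, 352 and 358 CPM at 12 h and 355 and 369 CPM at 24 h. PA and DMSO libraries did not overlap at any time, and the 2 PA libraries of 12 h lay far apart. The change was -0.64 ± 0.28 at 3 h (adjusted p = 0.279), -2.04 ± 0.30 at 12 h (adjusted p = 1.83e-04) and -3.01 ± 0.31 at 24 h (adjusted p = 9.22e-06). KIF18B (chr17:44924709-44947711, minus strand), which shortens astral microtubules, had 17.7 and 16.7 CPM at 3 h, 6.04 and 7.5 CPM at 12 h and 3.56 and 3.63 CPM at 24 h in PA libraries. KIF18B in DMSO libraries had 20.3 and 23.6 CPM at 0 h, 27.7 and 24.2 CPM at 3 h, 19.8 and 21.0 CPM at 12 h and 17.6 and 19.1 CPM at 24 h. It had the lowest CPM of the tested mitotic members at 0 h, and its PA replicates were close to each other at each time. The change was -0.59 ± 0.15 at 3 h (adjusted p = 0.0729), -1.59 ± 0.16 at 12 h (adjusted p = 1.52e-05) and -2.35 ± 0.17 at 24 h (adjusted p = 1.20e-06).

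The last 4 mitotic members were not lower than DMSO at 3 h. KIF20A (chr5:138178719-138187715, plus strand), which brings the chromosomal passenger complex to the central spindle, had 187 and 171 CPM at 3 h, 106 and 107 CPM at 12 h and 40.7 and 42.0 CPM at 24 h in PA libraries. KIF20A in DMSO libraries had 164 and 153 CPM at 0 h, 150.0 and 177 CPM at 3 h, 144 and 149 CPM at 12 h and 142 and 144 CPM at 24 h. The groups overlapped at 3 h and were separate at 12 and 24 h, with the lower PA values at 24 h. The change was 0.13 ± 0.12 at 3 h (adjusted p = 0.603), -0.46 ± 0.12 at 12 h (adjusted p = 0.00756) and -1.79 ± 0.13 at 24 h (adjusted p = 1.19e-06). KIF4A (chrX:70290090-70420832, plus strand), a chromokinesin that limits the central spindle together with PRC1, had 274 and 283 CPM at 3 h, 140.3 and 155 CPM at 12 h and 67.4 and 64.4 CPM at 24 h in PA libraries. KIF4A in DMSO libraries had 261.98 and 282 CPM at 0 h, 277 and 275 CPM at 3 h, 220.1 and 229 CPM at 12 h and 214 and 228 CPM at 24 h. It showed the same order, with overlap at 3 h only. The change was 0.02 ± 0.11 at 3 h (adjusted p = 0.955), -0.60 ± 0.11 at 12 h (adjusted p = 0.00103) and -1.75 ± 0.12 at 24 h (adjusted p = 1.19e-06). KIF2C (chr1:44739818-44767767, plus strand), which corrects wrong kinetochore attachments, had 446 and 405 CPM at 3 h, 227 and 218 CPM at 12 h and 175 and 154 CPM at 24 h in PA libraries. KIF2C in DMSO libraries had 399 and 445 CPM at 0 h, 421 and 411 CPM at 3 h, 290.0 and 318 CPM at 12 h and 397 and 379 CPM at 24 h. The DMSO libraries of 12 h were themselves lower than those of the other times. The change was 0.03 ± 0.12 at 3 h (adjusted p = 0.907), -0.45 ± 0.12 at 12 h (adjusted p = 0.00837) and -1.24 ± 0.12 at 24 h (adjusted p = 7.43e-06); at 12 h the call was lost without DMSO replicate 2 (adjusted p = 0.0651). KIF22 (chr16:29790719-29805385, plus strand), a chromokinesin that pushes chromosome arms toward the metaphase plate, had 152 and 146 CPM at 3 h, 109 and 91.0 CPM at 12 h and 85.4 and 92.3 CPM at 24 h in PA libraries. KIF22 in DMSO libraries had 128 and 140.4 CPM at 0 h, 138 and 127 CPM at 3 h, 96.7 and 108 CPM at 12 h and 136 and 145 CPM at 24 h. The PA libraries lay above those of DMSO at 3 h without passing the test, the groups overlapped at 12 h, and at 24 h both PA libraries were below all DMSO libraries of that time. The change was 0.17 ± 0.13 at 3 h (adjusted p = 0.52), -0.04 ± 0.13 at 12 h (adjusted p = 0.845) and -0.66 ± 0.13 at 24 h (adjusted p = 0.00101). KIF20A, KIF2C, KIF18A, KIF23 and KIF22 share exonic sequence with a gene on the opposite strand (CDC23 for KIF20A, METTL15 for KIF18A), and since the strand setting of the counting is not given in the sources used here, reads of such pairs cannot be told apart. KIF4B, a copy of KIF4A without introns, had 0 to 11 reads and may share reads with it; KIF2B, best known from testis, had 0 to 2 reads.

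**Figure D2:**
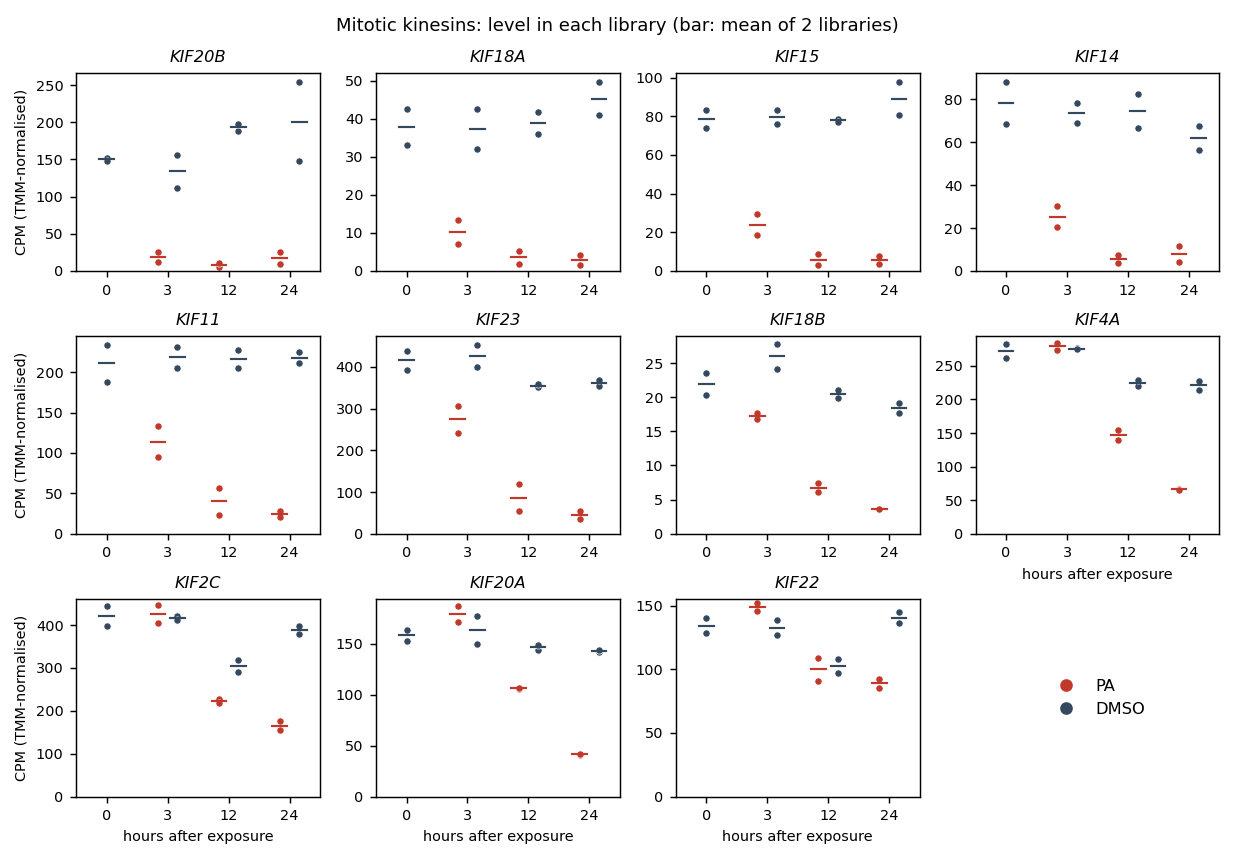
Level of the 11 tested mitotic kinesins in each library (TMM-normalised CPM, linear axes from 0) against hours after exposure; points are libraries, bars the mean of 2, panels run in order of the change at 3 h. PA libraries of KIF20B, KIF18A, KIF15 and KIF14 are low from 3 h on, whereas those of KIF4A, KIF2C, KIF20A and KIF22 lie near DMSO at 3 h.

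Transport kinesins changed in both directions, in shares near those of all genes. KIF5B (chr10:32009010-32056431, minus strand), the conventional kinesin heavy chain, had 199 and 313 CPM at 3 h, 79.6 and 213 CPM at 12 h and 169 and 81.1 CPM at 24 h in PA libraries. KIF5B in DMSO libraries had 622 and 547 CPM at 0 h, 508 and 617 CPM at 3 h, 761 and 756 CPM at 12 h and 555 and 594 CPM at 24 h. Its PA libraries were below all DMSO libraries at every time, and replicate 1 of 12 h and replicate 2 of 24 h were the lowest. The change was -1.14 ± 0.38 at 3 h (adjusted p = 0.165), -2.37 ± 0.39 at 12 h (adjusted p = 4.48e-04) and -2.20 ± 0.39 at 24 h (adjusted p = 4.40e-04). Its neuronal paralog KIF5A had 1.90 and 1.75 CPM at 3 h, 3.20 and 2.61 CPM at 12 h and 2.50 and 2.34 CPM at 24 h in PA libraries. KIF5A in DMSO libraries had 1.54 and 2.61 CPM at 0 h, 2.38 and 1.56 CPM at 3 h, 1.61 and 1.58 CPM at 12 h and 1.81 and 1.92 CPM at 24 h. At 12 h both PA libraries were above both DMSO libraries of that time, at levels of a few CPM. The change was -0.11 ± 0.29 at 3 h (adjusted p = 0.868), 0.87 ± 0.30 at 12 h (adjusted p = 0.0275) and 0.38 ± 0.30 at 24 h (adjusted p = 0.3), and the call at 12 h was lost without PA replicate 1 or either DMSO library of 12 h (highest adjusted p 0.153). KIF3A forms the heterotrimeric motor of ciliary transport with KIF3B. In PA libraries it had 1.45 and 2.22 CPM at 3 h, 0.504 and 2.75 CPM at 12 h. At 24 h it had 2.22 and 2.48 CPM in PA libraries. KIF3A in DMSO libraries had 3.98 and 5.16 CPM at 0 h, 4.21 and 4.42 CPM at 3 h, 4.38 and 4.18 CPM at 12 h and 4.55 and 3.74 CPM at 24 h. It was low in all libraries, and the 2 PA values of 12 h differed more than any other pair. The change was -1.22 ± 0.44 at 3 h (adjusted p = 0.203), -1.39 ± 0.46 at 12 h (adjusted p = 0.023) and -0.82 ± 0.44 at 24 h (adjusted p = 0.133); at 12 h it was -0.63 without PA replicate 1 and -3.07 without PA replicate 2, and the call was lost without PA replicate 1 (adjusted p = 0.12) or either DMSO library of 12 h.

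KIF1B, a carrier of mitochondria and synaptic vesicle precursors, had 46.1 and 46.5 CPM at 3 h, 30.6 and 46.1 CPM at 12 h and 25.9 and 26.8 CPM at 24 h in PA libraries. KIF1B in DMSO libraries had 49.7 and 43.2 CPM at 0 h, 48.5 and 49.5 CPM at 3 h, 58.5 and 49.8 CPM at 12 h and 41.3 and 40.8 CPM at 24 h. At 12 h both PA libraries were below both DMSO libraries, though replicate 2 only narrowly, and at 24 h both PA libraries were clearly lower. The change was -0.08 ± 0.17 at 3 h (adjusted p = 0.83), -0.50 ± 0.17 at 12 h (adjusted p = 0.0285) and -0.64 ± 0.17 at 24 h (adjusted p = 0.00713). At 12 h it was -0.23 without PA replicate 1, where the call was lost (adjusted p = 0.286), and -0.82 without PA replicate 2; the call was also lost without either DMSO library of that time. KIF13A, which moves recycling endosomes, had 33.4 and 33.7 CPM at 3 h, 34.9 and 45.0 CPM at 12 h and 32.3 and 25.6 CPM at 24 h in PA libraries. KIF13A in DMSO libraries had 37.4 and 38.2 CPM at 0 h, 41.2 and 42.4 CPM at 3 h, 56.5 and 48.0 CPM at 12 h and 42.8 and 36.5 CPM at 24 h. At 24 h its PA libraries were below both DMSO libraries by a small margin. The change was -0.32 ± 0.16 at 3 h (adjusted p = 0.334), -0.39 ± 0.16 at 12 h (adjusted p = 0.0646) and -0.46 ± 0.16 at 24 h (adjusted p = 0.0304); at 24 h it was -0.30 without PA replicate 2 (adjusted p = 0.238), and the call was also lost without DMSO replicate 1 of 24 h or PA replicate 1 of 3 h.

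Of the members that rose, KIF1A (chr2:240713761-240821036, minus strand) was the most abundant per length after KIF1C. It had 255 and 223 CPM at 3 h, 394 and 261 CPM at 12 h and 358 and 427 CPM at 24 h in PA libraries. KIF1A in DMSO libraries had 169.5 and 182 CPM at 0 h, 197 and 182 CPM at 3 h, 135 and 126 CPM at 12 h and 125 and 138 CPM at 24 h. PA libraries were above DMSO libraries at each time, and those of 24 h were the highest along with replicate 1 of 12 h. The change was 0.33 ± 0.17 at 3 h (adjusted p = 0.334), 1.33 ± 0.17 at 12 h (adjusted p = 9.89e-05) and 1.58 ± 0.18 at 24 h (adjusted p = 1.72e-05). KIF3C (chr2:25926596-25982749, minus strand), the alternative partner of KIF3A, had 31.2 and 26.8 CPM at 3 h, 68.2 and 37.7 CPM at 12 h and 61.7 and 70.5 CPM at 24 h in PA libraries. KIF3C in DMSO libraries had 15.5 and 21.5 CPM at 0 h, 20.4 and 18.9 CPM at 3 h, 16.0 and 15.5 CPM at 12 h and 19.6 and 22.3 CPM at 24 h. The groups were separate at all 3 times. The change was 0.56 ± 0.23 at 3 h (adjusted p = 0.253), 1.75 ± 0.24 at 12 h (adjusted p = 1.25e-04) and 1.66 ± 0.24 at 24 h (adjusted p = 9.75e-05). KIF1C (chr17:4997948-5028401, plus strand) had 376 and 362 CPM at 3 h, 408 and 299.5 CPM at 12 h and 393 and 418 CPM at 24 h in PA libraries. KIF1C in DMSO libraries had 283 and 329.9 CPM at 0 h, 348 and 277 CPM at 3 h, 236 and 257 CPM at 12 h and 198 and 228 CPM at 24 h. Its DMSO libraries were lower at 24 h than at 0 h, although that difference did not pass the test (log2 change -0.52 ± 0.16, adjusted p = 0.113). The change under PA was 0.24 ± 0.16 at 3 h (adjusted p = 0.448), 0.52 ± 0.16 at 12 h (adjusted p = 0.0174) and 0.93 ± 0.16 at 24 h (adjusted p = 4.18e-04); at 12 h it was 0.29 without PA replicate 1 (adjusted p = 0.183), and the call was also lost without DMSO replicate 1. KIF17, a kinesin of cilia and dendrites, had 2.27 and 2.27 CPM at 3 h, 3.17 and 1.64 CPM at 12 h and 4.05 and 5.47 CPM at 24 h in PA libraries. KIF17 in DMSO libraries had 0.788 and 1.42 CPM at 0 h, 2.15 and 1.39 CPM at 3 h, 1.40 and 1.79 CPM at 12 h and 1.32 and 1.18 CPM at 24 h. It was near the lower end of the counts, and its groups were narrowly separate at 3 h, overlapped at 12 h and were separate at 24 h. The change was 0.36 ± 0.35 at 3 h (adjusted p = 0.607), 0.59 ± 0.36 at 12 h (adjusted p = 0.196) and 1.92 ± 0.36 at 24 h (adjusted p = 6.13e-04). The other 4 transport members, KIF3B, KIF5C, KIF13B and KIF16B, did not pass the test against DMSO of the same time. Among them KIF3B, the usual partner of KIF3A, had 117 and 111 CPM in PA and 115 and 119.5 CPM in DMSO libraries at 24 h (change -0.04 ± 0.12), and the changes of the 4 over the 3 times ranged from -1.18 (KIF5C at 3 h) to 0.83 (KIF5C at 12 h).

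**Figure D3:**
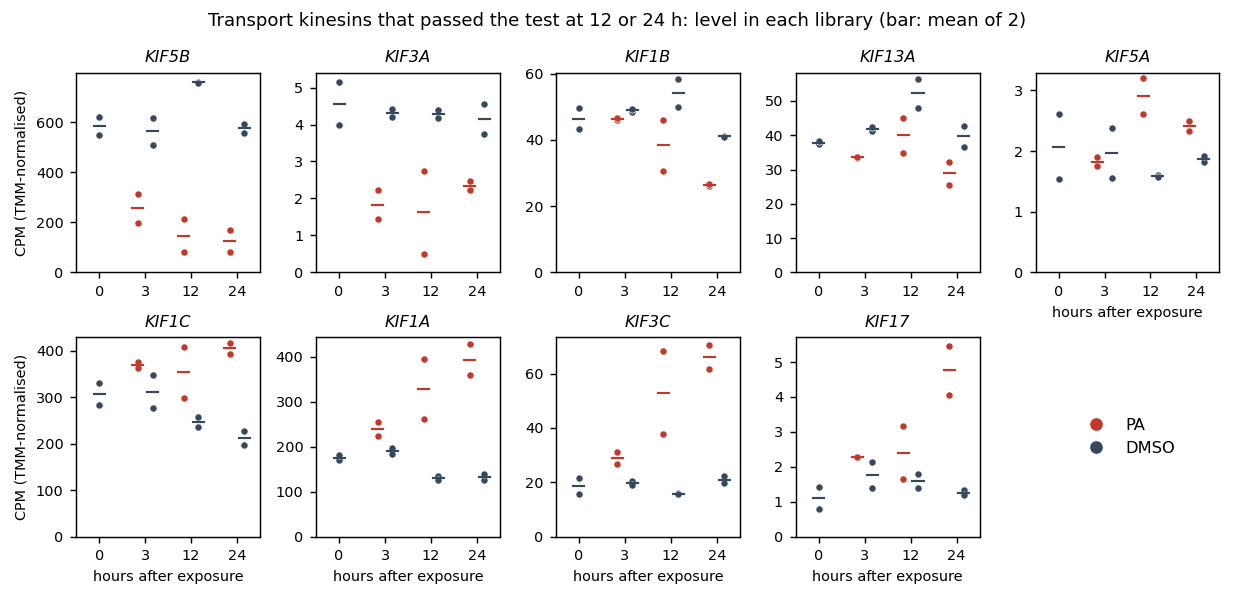
Level of the 9 transport kinesins that passed the test at 12 or 24 h in each library (TMM-normalised CPM, linear axes from 0) against hours after exposure; points are libraries, bars the mean of 2, panels run from the lowest to the highest change at 24 h. KIF5B lies low in all PA libraries, while KIF1C, KIF1A and KIF3C lie above DMSO at 12 and 24 h.

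Among the other kinesins, 4 of the 9 tested fell at 12 and 24 h. KIF21A (chr12:39293228-39443390, minus strand) had 16.6 and 25.9 CPM at 3 h, 14.03 and 25.0 CPM at 12 h and 15.8 and 14.7 CPM at 24 h in PA libraries. KIF21A in DMSO libraries had 49.0 and 51.0 CPM at 0 h, 45.8 and 54.9 CPM at 3 h, 75.6 and 78.2 CPM at 12 h and 58.6 and 66.4 CPM at 24 h. Its groups were separate at each time. The change was -1.24 ± 0.24 at 3 h (adjusted p = 0.0196), -1.98 ± 0.25 at 12 h (adjusted p = 6.62e-05) and -2.03 ± 0.25 at 24 h (adjusted p = 3.31e-05); at 3 h the call was lost without PA replicate 1 (adjusted p = 0.431) and in 5 other fits that left out a library. KIF2A (chr5:62306162-62537249, plus strand), a microtubule depolymerase that also acts at spindle poles, had 31.2 and 36.7 CPM at 3 h, 17.4 and 38.4 CPM at 12 h and 33.2 and 22.2 CPM at 24 h in PA libraries. KIF2A in DMSO libraries had 57.1 and 52.2 CPM at 0 h, 48.0 and 53.9 CPM at 3 h, 75.1 and 66.3 CPM at 12 h and 67.3 and 68.7 CPM at 24 h. PA libraries were below DMSO libraries at each time, and the PA pair of 12 h was the widest. The change was -0.59 ± 0.27 at 3 h (adjusted p = 0.296), -1.34 ± 0.28 at 12 h (adjusted p = 0.00179) and -1.30 ± 0.28 at 24 h (adjusted p = 0.00159), and at 12 h it was -0.87 without PA replicate 1 and -2.02 without PA replicate 2. KIF24, which acts at centrioles and holds back the growth of cilia, had 15.2 and 13.97 CPM at 3 h, 9.35 and 8.79 CPM at 12 h and 5.36 and 4.22 CPM at 24 h in PA libraries. KIF24 in DMSO libraries had 15.3 and 14.3 CPM at 0 h, 14.9 and 13.8 CPM at 3 h, 12.8 and 12.4 CPM at 12 h and 15.1 and 13.4 CPM at 24 h. It was level with DMSO at 3 h and lowest in PA at 24 h. The change was 0.02 ± 0.15 at 3 h (adjusted p = 0.952), -0.48 ± 0.16 at 12 h (adjusted p = 0.0238) and -1.57 ± 0.17 at 24 h (adjusted p = 1.13e-05), and the call at 12 h was lost when any of the 4 libraries of that time was left out (highest adjusted p 0.101). KIF27, a relative of the ciliary Hedgehog regulator KIF7, had 1.58 and 1.94 CPM at 3 h, 0.719 and 2.0 CPM at 12 h and 2.12 and 0.941 CPM at 24 h in PA libraries. KIF27 in DMSO libraries had 4.30 and 4.31 CPM at 0 h, 4.21 and 4.44 CPM at 3 h, 3.87 and 5.18 CPM at 12 h and 5.75 and 5.01 CPM at 24 h. Its PA libraries were below all DMSO libraries. The change was -1.29 ± 0.37 at 3 h (adjusted p = 0.112), -1.73 ± 0.39 at 12 h (adjusted p = 0.003) and -1.81 ± 0.38 at 24 h (adjusted p = 0.00146), and at 12 h it was -2.65 without PA replicate 2. KIF7, KIF9, KIF21B, KIF26A and KIF26B did not pass the test at any time, with changes between -0.39 (KIF26B at 12 h) and 1.91 (KIF21B at 24 h, SE 0.86, from at most 14 reads a library). KIF7, KIF9, KIF24 and KIF27 also overlap a gene on the opposite strand.

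Summed per length, the mitotic total was lower in PA by a larger factor than the transport total at 12 and 24 h. At 3 h it was not. The 13 mitotic members together had 393 and 408 RPKM at 3 h, 168 and 207 RPKM at 12 h and 109 and 98.7 RPKM at 24 h in PA libraries. In DMSO libraries they had 463 and 501 RPKM at 3 h, 432 and 425 RPKM at 12 h and 453 and 475 RPKM at 24 h, and at 0 h 484 and 464 RPKM. The mitotic sum was thus lower in each PA library than in any DMSO library. The 13 transport members had 148 and 163 RPKM at 3 h, 135 and 147 RPKM at 12 h and 127 and 124 RPKM at 24 h in PA libraries, against 186 and 202 RPKM at 3 h, 226 and 214 RPKM at 12 h and 172 and 180.4 RPKM at 24 h in DMSO libraries. KIF5B made up 13.0% of the transport sum in PA and 53.7% in DMSO libraries at 24 h. Without KIF5B the transport sum was 105 and 114 RPKM in PA and 80.0 and 83.2 RPKM in DMSO libraries at 24 h, and so was higher in PA. The ratio of the mitotic to the transport sum was 2.58 ± 0.11 in PA and 2.48 ± 0.0032 in DMSO libraries at 3 h (SD, n = 2 each). That order turned without the most abundant member of each class, with 2.42 in PA and 3.49 in DMSO libraries at 3 h. The ratio of the full sums was 1.32 ± 0.11 in PA and 1.95 ± 0.055 in DMSO libraries at 12 h, and 0.83 ± 0.048 in PA and 2.63 ± 0.0069 in DMSO libraries at 24 h. RPKM carry no TMM scaling: on the log2(RPKM + 0.1) scale the median change of all genes at 24 h was -0.24.

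**Figure D4:**
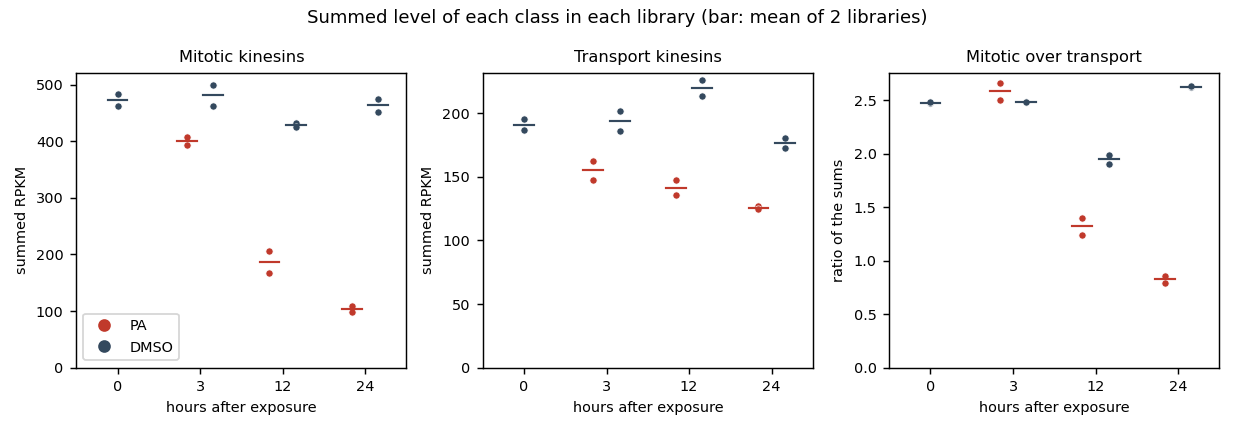
Summed RPKM of the mitotic and of the transport kinesins, and the ratio of the sums, in each library (vertical axes from 0) against hours after exposure; points are libraries and bars the mean of 2. The ratio is 0.86 and 0.79 in the PA libraries of 24 h and 2.62 and 2.63 in the DMSO libraries.

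The time course in the vehicle was tested in the same fit. In DMSO libraries 0 of 33 members passed the test at 3, 12 or 24 h against 0 h with edgeR, where 0.0%, 1.46% and 2.46% of all genes did. At an unadjusted p under 0.05 there were 0, 8 and 4 members, and DESeq2 called 0, 1 (KIF2C at 12 h) and 0. The largest of these by p was KIF2C at 12 h, with 290.0 and 318 CPM at 12 h against 399 and 445 CPM at 0 h (log2 change -0.47 ± 0.12, adjusted p = 0.0682). DESeq2 called 4.11% of all genes at 12 h and 4.76% at 24 h. With the 4 libraries of each comparison alone, 10 members were called at 12 h, where 20.2% of all genes were, and 6 at 24 h, where 18.5% were; the members' share at 24 h is near that of all genes. Against DMSO at 0 h, PA at 24 h had 18 members lower and 5 higher, where 28.1% of all genes were lower and 25.2% higher. All 11 tested mitotic members were among those lower. KIF13B, KIF1A, KIF1C, KIF3C and KIF17 were the 5 higher ones, and the calls of KIF1C and KIF13B were lost in 8 and 1 of the 14 fits without a library. Among the lower ones, those of KIF2A, KIF3B and KIF27 were lost in 1 or 2 fits.

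Whether the PA effect itself changed with time was tested as a difference of differences. Between 3 and 24 h the effect differed for 12 of 33 members, where 14.4% of all genes differed. It moved downward for KIF23 (-2.37), KIF15 (-2.29), KIF11 (-2.22), KIF18A (-2.11), KIF20A (-1.92), KIF4A (-1.76), KIF18B (-1.76), KIF2C (-1.27) and KIF22 (-0.83), which are 9 of 11 mitotic members, and for KIF24 (-1.60). It moved upward for KIF1A (1.25) and KIF3C (1.10). The calls of KIF15, KIF18A, KIF22 and KIF3C were lost in 1 to 10 of the 14 fits that left out a library, and the other 8 held in all of them. For KIF20B the effect at 24 h minus that at 3 h was -0.69 ± 0.58 and did not pass the test (adjusted p = 0.432). Between 3 and 12 h 3 of 33 members differed, against 2.79% of all genes: KIF14 (-2.17), KIF18B (-1.0) and KIF1A (1.0). Between 12 and 24 h it was 2 of 33, against 0.422% of all genes: KIF20A (-1.33 ± 0.17, adjusted p = 0.00644) and KIF4A (-1.14 ± 0.16, adjusted p = 0.0106), so for these central spindle motors the fall deepened after 12 h. KIF20B and KIF14 had smaller falls at 24 h than at 12 h, but the differences of 1.01 ± 0.59 and 0.75 ± 0.53 did not pass the test. None of the calls between 3 and 12 h or between 12 and 24 h held in all 14 fits that left out a library.

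The 5 members called lower at 3 h by edgeR shared a low GC content of their transcripts, which the rule did not use. Across the 33 tested members Spearman's rho between GC content and the change at 3 h was 0.86, and it was 0.79 at 12 h and 0.76 at 24 h. Across the 15071 tested genes with a known GC content it was 0.48, 0.64 and 0.58. Genes are not independent replicates and all share the same libraries, so these are descriptions. KIF20B had the lowest GC content (34.2%), followed by KIF18A (37.0%), KIF3A (37.8%), KIF11 and KIF14 (38.3% each), KIF5B (39.1%), KIF27 (39.9%), KIF15 (41.2%), KIF2A (41.6%), KIF21A (42.1%) and KIF23 (42.3%). These 11 members under 43% hold all 5 calls at 3 h, and all 11 fell at 12 h and 10 at 24 h. The median GC content of all tested genes was 48.8%. Of all genes tested, 1.58% fell at 3 h, 24.1% fell and 24.4% rose at 12 h, and 27.5% fell and 27.2% rose at 24 h. Calls among all genes under 43% were not counted, so the share of these members has no like share beside it. The 22 members with 44.5% to 68.3% GC had median changes of 0.029, -0.0079 and -0.028, with 6 lower and 4 higher at 12 h and 8 lower and 4 higher at 24 h. Within the mitotic class the members not lower than DMSO at 3 h had 46.4% (KIF4A) to 58.9% (KIF22). KIF18B, with 58.4%, did not pass the test at 3 h by edgeR. It was called lower at 3 h by DESeq2 and under the GC correction described below. The border of 43% was set after the values were seen. Between transcript length and the change, rho was 0.038, 0.23 and 0.36 across the 33 members and -0.71, -0.82 and -0.57 across the 11 mitotic members.

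Changes were therefore also computed with each library's dependence on GC and length of the transcript removed by splines. At 3 h 7 members were then lower, the 5 named above with KIF11 (-0.59, adjusted p = 0.0443) and KIF18B, where 2.99% of all genes were lower and 0.756% higher. At 12 h 16 were lower and 3 higher, against 20.5% and 19.3% of all genes, and KIF1B, KIF1C and KIF3A no longer did. At 24 h KIF13A no longer passed and KIF7 became lower (-0.49, against 0.19 before correction). KIF22 became lower at 12 h (-0.70, adjusted p = 4.20e-05, against 109 and 91.0 CPM in PA and 96.7 and 108 CPM in DMSO libraries before correction). KIF20B changed by -2.31, -3.27 and -2.38 at 3, 12 and 24 h and KIF5B by -0.81, -1.58 and -1.36 after correction. KIF1A rose by 0.78 and 1.04 and KIF3C by 1.36 and 1.34 at 12 and 24 h. All 11 tested mitotic members were lower at 24 h under the correction as well, where 3721 of 15071 genes were lower and 3676 higher. How far GC content or a process that acts on it takes part in the changes was not tested.

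**Figure D5:**
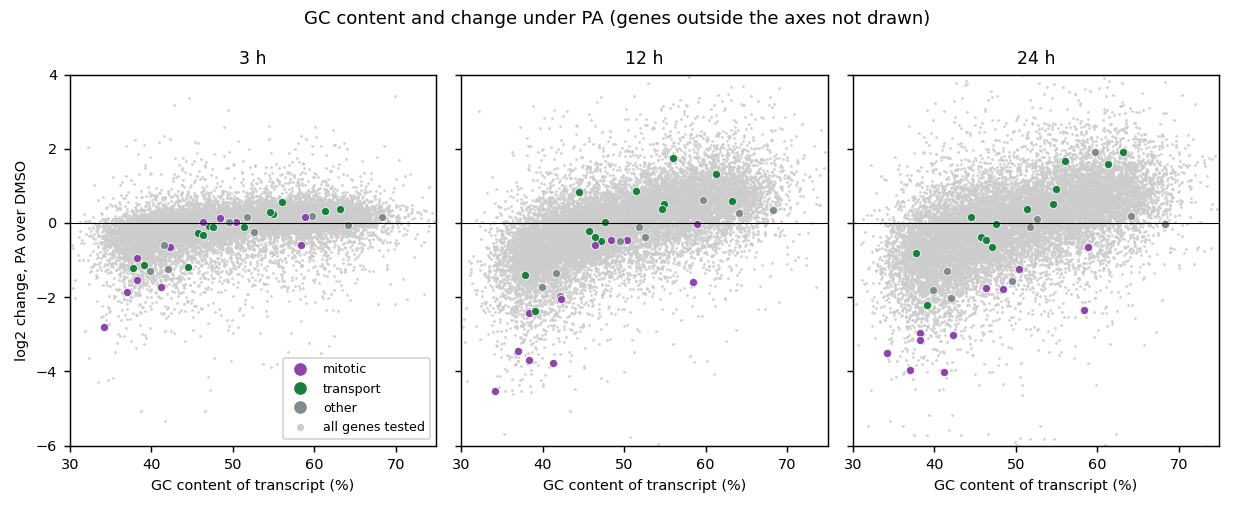
GC content of the transcript (horizontal axis, percent) against the log2 change of PA over DMSO at 3, 12 and 24 h for the 33 tested kinesins, coloured by class, and for all genes tested in grey. At 3 h the members below 43% GC lie at -0.59 or lower and most others near 0. At 24 h all mitotic members, which span 34.2% (KIF20B) to 58.9% GC (KIF22), lie below 0.

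Motors outside the naming rule, regulators of the mitotic members and the partners of the transport members were measured in the same fit. CENPE, the kinetochore kinesin that brings chromosomes to the metaphase plate, averaged 5.90 ± 2.36 CPM in PA and 108 ± 18.4 CPM in DMSO libraries at 3 h (SD, n = 2 each). Its change was -4.18 ± 0.37 at 3 h (adjusted p = 0.000173), -5.70 ± 0.41 at 12 h (adjusted p = 1.59e-06) and -4.16 ± 0.37 at 24 h (adjusted p = 4.20e-06). KIFC1, which walks to the minus end and focuses spindle poles, averaged 86.5 ± 0.61 CPM in PA and 153 ± 18.3 CPM in DMSO libraries at 24 h. It changed by -0.82 ± 0.14 at 24 h (adjusted p = 3.96e-04) and did not pass the test at 3 or 12 h. KIFC2 rose at 12 h (0.92 ± 0.27) and 24 h (1.12 ± 0.27), STARD9 fell at 24 h (-0.98 ± 0.23), and KIFC3 did not pass the test at any time (0.28 ± 0.15 at 24 h).

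Of 16 measured partners of mitotic kinesins (such as PRC1, ECT2, RACGAP1, the Aurora kinases and PLK1), 1 fell at 3 h, 13 at 12 h and all 16 at 24 h, with medians of 0.026, -0.64 and -1.60. The one at 3 h was HMMR, a spindle protein, with 62.8 ± 24.0 CPM in PA and 243 ± 28.4 CPM in DMSO libraries (change -1.95 ± 0.38, adjusted p = 0.0213). At 12 h HMMR changed by -3.81 ± 0.42, CEP55, a scaffold of abscission, by -2.02 ± 0.31, the microtubule bundler NUSAP1 by -1.41 ± 0.22 and the spindle pole kinase AURKA by -0.83 ± 0.13. Of the 17 kinesin light chains and cargo adaptors, 1 fell at 3 h, 3 fell and 5 rose at 12 h, and 2 fell and 7 rose at 24 h, with medians of 0.039, 0.28 and 0.21. Of all genes 1.58% fell at 3 h, 24.1% fell and 24.4% rose at 12 h, and 27.5% fell and 27.2% rose at 24 h. The share of adaptors that rose at 12 h is thus near that of all genes. The one at 3 h was MAPK8IP3 (-0.72), named after its value was seen. The adaptor MAPK8IP1 averaged 27.0 ± 1.33 CPM in PA and 9.19 ± 0.91 CPM in DMSO libraries at 24 h (change 1.55 ± 0.29), and the light chain KLC4 27.8 ± 3.75 CPM in PA and 11.9 ± 0.30 CPM in DMSO libraries (1.22 ± 0.22). HAP1, which links huntingtin to motors, changed by 1.39 ± 0.26, and SPAG9, a scaffold that binds kinesin and dynein, by -0.80 ± 0.18 at 12 h and, without passing the test, by -0.43 ± 0.18 at 24 h. Of the 20 subunits and regulators of dynein and dynactin, the motor of the opposite direction, 2 fell and 6 rose at 12 h, and 2 fell and 8 rose at 24 h, with medians of 0.010 and 0.26. The share that rose at 12 h is likewise not far from the 24.4% of all genes, and that at 24 h stands beside 27.2%. DCTN1, the largest dynactin subunit, averaged 1198 ± 18 CPM in PA and 548 ± 30.1 CPM in DMSO libraries at 24 h (change 1.13 ± 0.16), and DCTN2 232 ± 37.0 CPM in PA and 118 ± 2.52 CPM in DMSO libraries (0.97 ± 0.17). ACTR1A (0.54 ± 0.13) and DCTN3 (0.64 ± 0.17) rose at 24 h too.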

How the data were processed

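PANC-1 RNA-seq libraries were grouped by agent and time as their titles give them. The submitters' processing notes name TopHat2, edgeR and GRCh38; the counting tool was not given in the sources used here, nor were the annotation release and the strand setting. The authors deposited raw read counts for 28120 genes and RPKM for 25447 of them. The counts were filtered by expression per group, TMM-normalised and fitted with 7 group means (7 residual degrees of freedom). Quasi-likelihood tests were two-sided, in edgeR 4.0.16 (R 4.3.3), with Benjamini-Hochberg adjustment over the 15181 genes kept. The script recovered known changes on data simulated with the same dispersion in every gene and group. That check does not cover the wider spread of the PA libraries of 12 h. CPM are TMM-normalised; the deposited RPKM were used for levels, sums and limma fits. The standard error is the log2 change divided by the square root of F.

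The members and gene lists were chosen with earlier results of these data known. The text names every tested mitotic member, each other member past the threshold in a PA against DMSO comparison, the 3 most abundant of the transport and other classes, and, in lists outside the family, at most 4 genes with the smallest p at 12 h; KIF3B, MAPK8IP3 and the members grouped by GC content were named after their values were seen. The numbers of the replicates were not shown to pair libraries: same-numbered libraries deviated together (r over 0.1) in 2 of 21 pairs of groups. With 2 libraries per group this check cannot exclude pairing. Alternatives were DESeq2 1.42.0, DESeq2-type size factors, other filters, a replicate block, the 4 libraries of a comparison alone, limma 3.58.1 on log2(RPKM + 1) and log2(RPKM + 0.1), offsets per library for the GC content and length of transcripts (natural splines), and leaving out each library. Counting intervals are not given, since replicate spread exceeded counting error.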

Additional observations from a re-analysis of the deposited data

Results flagged for a closer look

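The effect of PA on 13 kinesins differed between times by a test of the difference itself (edgeR's quasi-likelihood test, adjusted over all genes tested, 2 libraries per group), in 17 results. Values are differences of log2 changes, later time minus earlier time.

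Between 24 and 3 h the difference was negative for 9 mitotic members. It was -2.37 ± 0.41 for KIF23, -2.29 ± 0.54 for KIF15, -2.22 ± 0.44 for KIF11, -2.11 ± 0.59 for KIF18A and -1.92 ± 0.18 for KIF20A. It was -1.76 ± 0.16 for KIF4A, -1.76 ± 0.23 for KIF18B, -1.27 ± 0.17 for KIF2C and -0.83 ± 0.19 for KIF22. Among the others it was -1.60 ± 0.23 for KIF24, 1.25 ± 0.24 for KIF1A and 1.10 ± 0.33 for KIF3C. The adjusted p of these 12 ranged up to 0.0408, the value of KIF3C.

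Between 12 and 3 h the difference was -2.17 ± 0.52 for KIF14 (adjusted p = 0.042), -1.0 ± 0.22 for KIF18B (adjusted p = 0.031) and 1.0 ± 0.24 for KIF1A (adjusted p = 0.0452). Between 24 and 12 h it was -1.33 ± 0.17 for KIF20A and -1.14 ± 0.16 for KIF4A.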

How the results depend on the processing

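Of 1209 values of 116 results under alternatives other than leaving out a library, 1133 kept their direction and side of the threshold, 39 lost a call or shrank, 34 gained one or grew, and 3 were reversed. Sign changes of values that passed in neither fit (52) were not counted as reversed. The reversed ones were KIF7 at 12 h (-0.44, GC and length correction with replicate block) and at 24 h (-0.49 with the correction, -0.50 with the replicate block added); its uncorrected changes did not pass the test. The cause was not tested here or below.

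The replicate block alone gave 4 lower members at 3 h, 17 lower and 4 higher at 12 h, 18 lower and 4 higher at 24 h, and 1 in place of 3 whose effect differed between 3 and 12 h. Of 15181 genes, 210 were then lower at 3 h, and 3563 were lower and 3535 higher at 12 h. At 24 h 4039 were lower and 3994 higher, and the effect differed between 3 and 12 h for 285. The check in 21 pairs of groups (r from -0.218 to 0.244) did not show that the numbers pair libraries.

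At 3 h the lower members numbered 10 with no filter on low counts, 12 (and 1 higher) with the 4 libraries alone and 1 with limma on log2(RPKM + 0.1). Of all genes, 859 of 28120, 939 of 14276 (244 higher) and 102 of 15049 were then lower. The higher members at 12 h numbered 2 with the 4 libraries alone and 2 with the correction and block. Over all genes, 1954 of 14156 and 2831 of 15071 were then higher. Members whose effect differed between 3 and 12 h numbered 8 with DESeq2, 11 with no filter, 6 with limma on RPKM of at least 1, 11 with the correction and 11 with block added. In the same order, 1108 of 15181, 1808 of 28120, 558 of 11040, 1036 of 15071 and 913 of 15071 genes differed. Between 3 and 24 h such members numbered 19 with no filter, where 3136 of 28120 genes differed. Between 12 and 24 h they numbered 4 with DESeq2 and with each of 3 limma fits, 6 with no filter, and 5 with the correction, with or without the block. Of all genes, 195 of 15181 differed with DESeq2, and 85 of 15049, 72 of 15049 and 73 of 11040 in the limma fits (+ 1, + 0.1, RPKM of at least 1). With no filter 269 of 28120 genes did, with the correction 331 of 15071 and with the block added 261. In DMSO at 12 h against 0 h, 1 member was called with DESeq2, 1 with no filter, 10 with the 4 libraries alone and 3 with the correction, with or without the block. The same fits called 624 of 15181, 849 of 28120, 2850 of 14121, 842 of 15071 and 668 of 15071 genes. At 24 h against 0 h the members called were 1 with no filter, 6 with the 4 libraries alone, 2 with the correction and 1 with the block added. Of all genes, 703 of 28120, 2644 of 14258, 1322 of 15071 and 1200 of 15071 were then called.

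The transport median at 3 h was -0.089 with DESeq2, -0.089 with its size factors, -0.087 with no filter, -0.13 at 5 CPM or more, -0.044, -0.058 and -0.067 in the limma fits (+ 1, + 0.1, RPKM of at least 1), -0.15 with the correction and -0.15 with the block added. At 12 h it was -0.11 at 5 CPM or more, 0.041 and -0.22 with limma (+ 1, RPKM of at least 1), and 0.12 with the correction, with or without the block. At 24 h it was -0.21 at 5 CPM or more and -0.47 with limma on RPKM of at least 1, filters that test fewer transport members, and 0.33 with the correction, with or without the block.

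Without the most abundant member of each class the mitotic to transport ratio was 2.42 in PA and 3.49 in DMSO libraries at 3 h, 1.07 in PA and 3.62 in DMSO at 12 h, 0.59 in PA and 4.25 in DMSO at 24 h, and 3.60 in DMSO at 0 h. With summed CPM it was 1.28 in PA and 1.41 in DMSO at 3 h, 0.62 in PA and 1.18 in DMSO at 12 h, 0.38 in PA and 1.55 in DMSO at 24 h, and 1.42 in DMSO at 0 h. The ratio was lower in PA than in DMSO at 3 h in both, and higher only in the RPKM sums of all members. Its direction at 3 h thus depended on the measure and the members summed.

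Leaving out 1 library in turn, lower members at 3 h ranged from 0 to 12 and higher ones from 0 to 1, and higher ones at 12 h from 2 to 5. Members whose effect differed ranged from 0 to 16 between 3 and 12 h (16 without PA 12 h replicate 2), from 8 to 19 between 3 and 24 h (19 without either PA library of 12 h) and from 0 to 7 between 12 and 24 h (7 without PA 12 h replicate 1, 0 without either DMSO library of 12 h or DMSO replicate 1 of 24 h). In DMSO they ranged from 0 to 5 at 12 h and from 0 to 3 at 24 h, highest without either PA library of 12 h. The mitotic median at 3 h ranged from -0.81 to -0.61, and the transport median from -0.11 to -0.051 at 3 h and from 0.092 to 0.56 at 12 h.

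With 2 libraries per group, small changes and members of a few CPM (KIF3A, KIF5A, KIF17) are measured with wide error, and a change that missed the threshold is not shown to be absent.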
